A study of Mus musculus with 16 samples.

Results

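The comparison described here is between induced pluripotent stem cells (iPSC) made from aged blood cells and iPSC made from young blood cells of the mouse. Its members are the 2 arrays whose titles give an aged haematopoietic origin and the 2 whose titles give a young one, 4 of the 16 Affymetrix arrays of the series. All came from wild-type C57Bl6 background cells grown on mouse embryonic fibroblast (MEF) feeders, and biotinylated cRNA was prepared from 10000 cells per array. The labels call the arrays of each origin biological replicates and code them AgedBiPS and YoungBiPS, and they give no donor age for them. The sources used here do not say which blood cell was reprogrammed, by which factors, or whether the arrays of one origin came from separate clones, cultures or animals. The p-values below therefore measure the spread between these arrays, which may be technical. In the iPSC comparison that spread takes in the gap between the 2 reference arrays of embryonic stem cells, which come from different suppliers. Used for reference were 2 arrays of commercial embryonic stem cells (ESC) from Open Biosystems and Primogenix, of the same background and also grown on MEF feeders, and arrays of haematopoietic stem cells (HSC) sorted from the bone marrow of steady-state wild-type C57Bl6 males, 3 from animals of 21 to 24 months and 3 from animals of 3 to 4 months. Each of 18193 genes was represented by 1 probe set, and the 626 genes on the X and Y chromosomes were set aside, which left 13230 autosomal genes that were bright enough to test in the 6 iPSC and ESC arrays.

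Reprogramming returns a somatic cell to a pluripotent state that is held by a network of transcription factors such as Oct4, Nanog, Sox2 and Esrrb, and it rewrites DNA methylation and histone marks across the genome. Marks of the starting cell can survive in early passages, and some imprinted regions, above all Dlk1-Dio3, can be silenced along the way. HSC of aged mice are known for a bias towards platelets and myeloid cells and for high expression of genes such as Selp, Vwf and Clu. Comparing iPSC by the age of their source asks whether an expression difference tied to donor age is carried through reprogramming.

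No autosomal gene was called between aged-origin and young-origin iPSC. In limma, 0 of 13230 genes (0%) had a Benjamini-Hochberg adjusted p under 0.05, and the lowest adjusted p was 0.507, for the red cell membrane gene Gypc. An unadjusted p under 0.05 was found for 647 genes (4.89%), of which 291 (2.2%) were higher and 356 (2.69%) lower in aged origin. The median difference over all tested genes was -0.03 on the log2 scale, with 41.1% of genes above 0. A p that misses the threshold does not show that the levels are alike, so the width of the intervals is given. The median standard error was 0.14 log2, and the 95% interval of the difference lay within 1 log2 of 0 for 13124 genes (99.2%). These intervals are per gene and not adjusted for the number of genes.

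The 2 origins were as close to each other as the arrays of 1 origin. Over the tested genes, the median absolute log2 difference was 0.153 between the aged-origin arrays, 0.137 between the young-origin arrays and 0.145 between the ESC arrays. Across origins the 4 possible pairs gave 0.126 to 0.162, a range that holds all 3 within-group values. The 8 pairs of an iPSC with an ESC array gave 0.145 to 0.191. A difference over 1 log2 was seen in 17 genes between the aged-origin arrays, in 16 between the young-origin arrays and in 11 to 27 genes across origins.

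**Figure D1:**
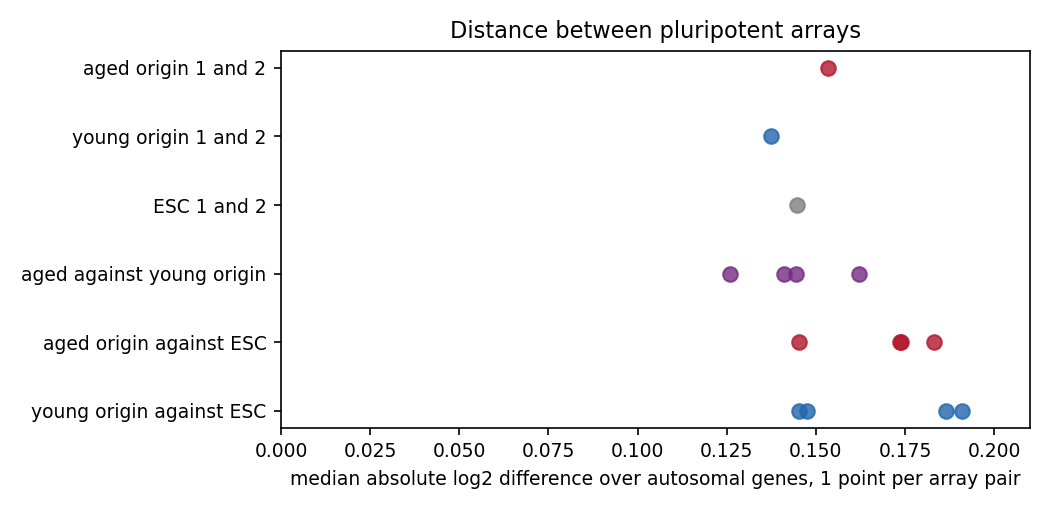
Median absolute log2 difference (x axis) over autosomal tested genes for each pair among the 4 iPSC and 2 ESC arrays, 1 point per pair, grouped by kind of pair. The 4 pairs of aged against young origin lie at 0.126 to 0.162, around the aged-origin pair at 0.153 and the young-origin pair at 0.137.

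Arrays that stood apart in single respects are given first, since the same 4 arrays enter every iPSC value. Array medians over all probe sets were close, at an intensity of 45.80 to 46.32 for iPSC and ESC. Aged-origin array 2 had the lowest median difference from the ESC mean on 19 of 19 autosomes (-0.13 to -0.01 log2, against -0.06 to 0.07 for the other 3 arrays). The sign of the all-gene median depends on the scaling between arrays, being 0.01 after quantile normalisation and -0.04 after centring each array. Young-origin array 2 carried the most signal of fibroblast and feeder genes among the iPSC: the summed linear intensity of the 32 listed genes on the array was 8951, against 7550 on young-origin array 1, 7689 and 6979 on the aged-origin arrays, and 8656 and 9460 on the ESC arrays. It exceeded young-origin array 1 in 24 of the 32 genes, and 5 of the 32 lay below the dim limit of 4.80 log2. The part of this signal in any difference named below was not tested, and in bulk RNA fewer cells of a type and less RNA per cell cannot be told apart.

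Identity of the cells was checked with marker lists. Pou5f1, which encodes Oct4, lay at 10.96 and 10.93 log2 on the aged-origin arrays, 10.73 and 10.87 on the young-origin arrays, and 11.04 and 10.95 on the ESC arrays. The 31 autosomal naive pluripotency genes summed to an intensity of 57530 to 60770 in iPSC, 63034 and 63084 in ESC and 4265 to 7460 in steady-state HSC. HSC identity genes ran the other way, summing to 3105 to 3574 in iPSC and 64453 to 69546 in HSC. Ptprc, which encodes the pan-leukocyte antigen CD45, lay between 3.20 and 3.61 log2 on the iPSC arrays and was below the dim limit there, as were 13 of the 32 HSC identity genes. The pluripotency genes were thus at or near the ESC level on all 4 iPSC arrays, and the blood genes far below their HSC level.

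The genes with the smallest p are described next as values, since none passed the test and each was chosen from the iPSC arrays themselves. They are, in each direction, the 12 whose aged-origin and young-origin arrays do not overlap, a property that 4414 of the tested genes (33.4%) share. Their adjusted p ran from 0.507 to 0.976 in limma.

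The 12 genes lower in aged origin include Gypc, Cd300a, Ern1 and Ankrd37, none of them called. Gypc, the gene of glycophorin C, lay at 4.82 and 4.70 log2 on the aged-origin arrays, at 5.66 and 5.63 on the young-origin arrays and at 4.75 and 4.52 on the ESC arrays. The aged-origin arrays were therefore at the ESC level and the young-origin arrays above it, a difference of -0.89 log2 (SE 0.13, 95% interval -1.18 to -0.59). Cd300a, an inhibitory receptor gene of myeloid cells, read 4.66 and 5.06 in aged origin, 5.75 and 5.92 in young origin and 5.67 and 5.32 in ESC (-0.97, SE 0.18). Here the young-origin and ESC arrays lay together and the aged-origin arrays below both.

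Ern1, which encodes the endoplasmic reticulum stress sensor IRE1-alpha, read 6.54 and 6.21 in aged origin and 7.07 and 7.01 in young origin (-0.67, SE 0.14). Ankrd37, a gene induced by hypoxia, read 5.85 and 5.69 against 6.33 and 6.37, with both ESC arrays at 6.39 and 6.37 (-0.58, SE 0.12). Sox11, a transcription factor gene of neural progenitors, read 8.93 and 9.11 against 9.75 and 9.53 (-0.62, SE 0.14), and the ESC arrays at 9.48 and 9.65 stood with the young origin. Spink1, which encodes a trypsin inhibitor, read 6.47 and 6.47 against 7.39 and 7.08 (-0.77, SE 0.14). The other 6 genes lower in aged origin are Kank2, a regulator of the cytoskeleton (-0.64), Mrps21, a protein gene of the mitochondrial ribosome (-0.62), Mylk2, the skeletal muscle myosin light chain kinase gene (-0.66), Rmdn2 (-0.73), 9330198I05Rik (-0.58) and 4921525O09Rik (-0.55).

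The 12 genes higher in aged origin were likewise uncalled. Cntln, which encodes a centrosomal protein, read 5.71 and 5.35 log2 in aged origin, 4.57 and 4.83 in young origin and 5.92 and 5.55 in ESC (0.83, SE 0.18). Pde4b, a phosphodiesterase gene that ends cAMP signals, read 5.54 and 5.16 against 4.59 and 4.56, with the ESC arrays at 4.45 and 4.86 (0.78, SE 0.18). Lama4, a laminin subunit gene, read 6.12 and 6.19 against 5.61 and 5.27, with the ESC arrays between them at 5.56 and 5.85 (0.72, SE 0.16). The ESC arrays thus sided with the aged origin in Cntln and with the young origin in Pde4b.

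Neurog1, a proneural transcription factor gene, read 5.54 and 5.72 against 5.08 and 4.83 (0.68, SE 0.15). Eif4e3, a gene of the cap-binding protein family, read 6.91 and 6.71 against 5.97 and 6.31 (0.67, SE 0.15), and Lima1, an actin-binding protein gene, read 8.06 and 8.09 against 7.32 and 7.64 (0.59, SE 0.14). Lima1 is the brightest of the 12, of which the others are Gm32926, 1700001C19Rik, Zfp90, Ptpn9, Adamtsl3 and Abhd14b, at differences of 0.60 to 0.76. Other probe sets of the same genes did not always point the same way. Of the 12 higher genes, 4 had another probe set above the dim limit and 2 of these gave an opposite sign, namely 1700001C19Rik and Eif4e3, and of the 12 lower genes 5 had one and 2 gave an opposite sign, 4921525O09Rik and Ern1. A same sign could also hide a smaller difference: another probe set gave 0.02 for Pde4b, -0.01 for Kank2, and -0.14 and -0.05 for Rmdn2. For Sox11 the other probe sets ran from -0.38 to -0.07. Of all 107 named genes tested in iPSC, 46 had another probe set above the dim limit and 21 of these had one of opposite sign. Besides those above they include, among genes described below, Nr5a2, Esrrb, Laptm5, Meg3, Ndn, Col1a1, Ccne1, Wwtr1, Camk1d and Satb1.

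**Figure D2:**
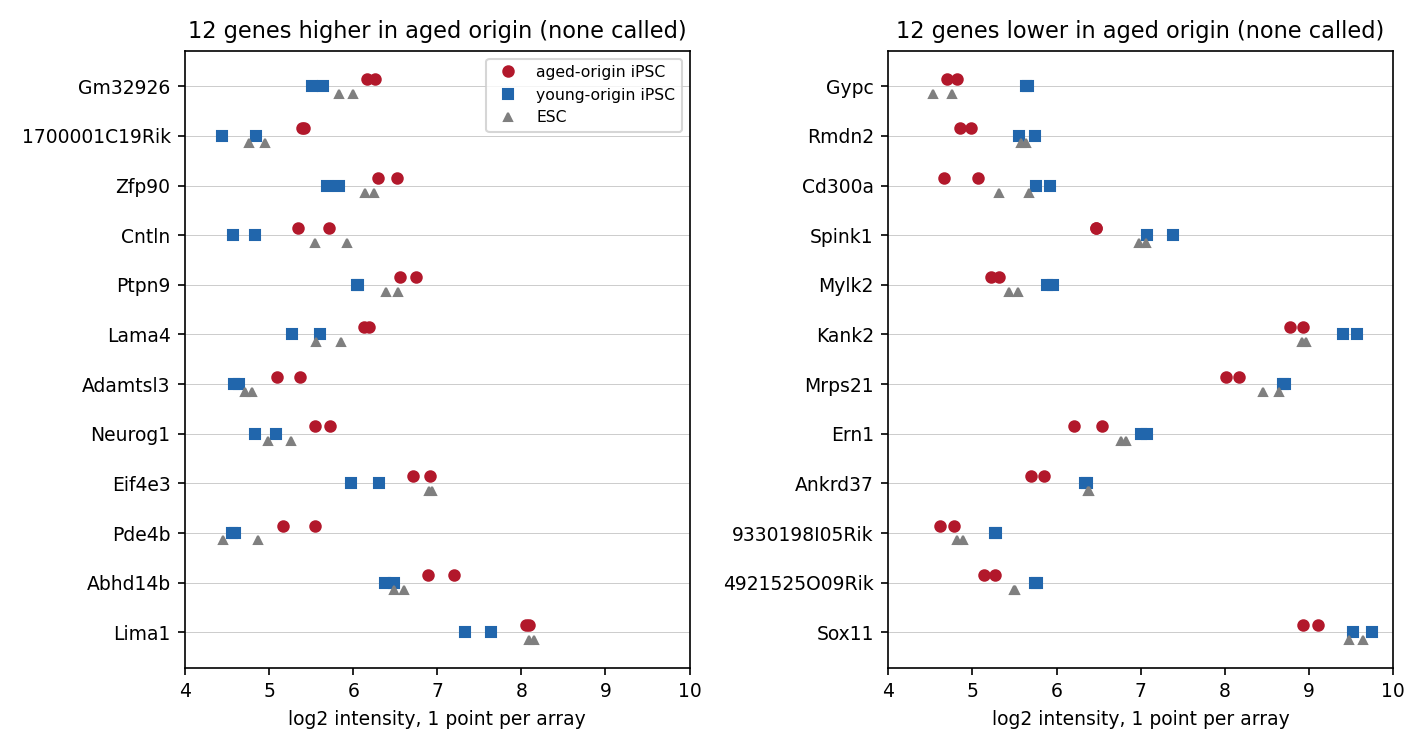
Log2 intensity (x axis) of the 24 genes with the smallest p and no overlap between origins, 1 point per array, with aged-origin iPSC as circles, young-origin iPSC as squares and ESC as triangles. Gypc shows the aged-origin arrays at 4.82 and 4.70 beside ESC and the young-origin arrays at 5.66 and 5.63, and no gene of either panel was called.

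The largest differences were not the most precise ones. Of all tested genes 150 differed by 0.5 log2 or more and 2 by 1 log2 or more, and both of the latter are named for their size after their values were seen. Smco4, a small membrane protein gene, read 5.41 and 5.14 in aged origin and 6.55 and 6.36 in young origin (-1.18, SE 0.31, adjusted p = 0.976 in limma). Its ESC arrays were as far apart, at 5.05 and 6.23, and that gap entered the SE. Ptn, which encodes the growth factor pleiotrophin, read 5.93 and 4.08 against 5.67 and 6.58, so that its groups overlapped.

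Among the 31 naive pluripotency genes, 0 were called and 1 had an unadjusted p under 0.05. Nr5a2, the gene of a nuclear receptor that can replace Oct4 in reprogramming, read 7.22 and 7.28 log2 in aged origin and 7.58 and 8.0 in young origin (-0.54, 95% interval -0.95 to -0.14). Nanog read 9.09 and 9.01 against 9.02 and 9.63, where young-origin array 2 alone was high (-0.28, interval -0.71 to 0.16). Sox2 read 11.64 and 11.20 against 11.52 and 11.56 (-0.12, interval -0.48 to 0.24), and Esrrb 8.83 and 9.17 against 8.60 and 8.98 (0.21, interval -0.32 to 0.74). The median of the list was -0.12, beside -0.03 over all tested genes, and it was -0.04 after quantile normalisation. The intervals of all 31 lay within 1 log2 of 0. Groups did not overlap in 10 of the 31, near the background of 33.4%.

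Primed pluripotency genes, which mark the later epiblast state, had a median of 0.05 over 16 tested. Lefty2, a Nodal target and inhibitor, read 8.72 and 8.43 against 8.91 and 8.98 (-0.37, unadjusted p = 0.0224 by limma's moderated test over all genes), and it was the 1 member with an unadjusted p under 0.05. Of the two-cell-like list only 2 of 10 genes on the array were bright enough to test. Sp110 read 5.27 and 5.58 against 5.70 and 5.94 and Zfp352 5.64 and 5.75 against 5.73 and 5.74.

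Genes of the blood source showed no group difference that passed the test. Of the 19 HSC identity genes tested, 0 were called, 1 had an unadjusted p under 0.05 and the median was -0.01. Of the same 19, 9 lay above 0, against 41.1% of all tested genes. Laptm5, a lysosomal membrane protein gene of blood cells that was also bright in ESC, read 10.13 and 10.23 in aged origin, 10.49 and 10.61 in young origin and 10.51 and 10.24 in ESC (-0.37, SE 0.14). Hlf, a transcription factor gene of HSC, read 6.28 and 6.23 against 6.19 and 5.72, with ESC at 6.24 and 6.04, so these arrays gave no level above ESC. In mature blood genes, 0 of 18 were called, 2 had an unadjusted p under 0.05 and the median was -0.01. Fcer1g, an Fc receptor subunit gene, read 6.04 and 5.99 against 6.53 and 6.40 (-0.45, SE 0.12), and the neutrophil protease gene Prtn3 read 6.25 and 6.35 against 6.65 and 6.75 (-0.40, SE 0.13). In both, the young-origin arrays stood above the ESC arrays, which read 6.02 and 6.03 for Fcer1g and 5.79 and 5.97 for Prtn3. For Prtn3 both aged-origin arrays also stood above both ESC arrays, whereas for Fcer1g they were at the ESC level.

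The Dlk1-Dio3 imprinted region holds maternally expressed noncoding RNAs whose silencing marks some iPSC lines. Its noncoding gene Meg3 read 6.74 and 5.99 log2 in aged origin, 6.05 and 6.05 in young origin and 9.14 and 10.22 in ESC. All 4 iPSC arrays were thus below both ESC arrays, while the origins differed by 0.32 (interval -0.42 to 1.05). Rian, of the same region, lay at 3.69 to 4.27 in iPSC, below the dim limit, and at 5.72 and 5.65 in ESC. Over the 6 genes of the region tested the median was 0.04 and 0 were called or had an unadjusted p under 0.05. The same held for the 31 imprinted genes elsewhere, whose median was 0.004. Ndn, a gene of the Prader-Willi region, read 8.70 and 8.48 against 8.95 and 8.92 (-0.35, SE 0.15).

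Chromatin genes were close between origins. Of the 17 DNA methylation genes tested 0 were called and 0 had an unadjusted p under 0.05, with a median of -0.11 that was -0.03 after quantile normalisation. The de novo methyltransferase genes gave 8.83 and 8.65 against 8.55 and 8.55 for Dnmt3a (0.19, interval -0.11 to 0.49) and 12.37 and 12.24 against 12.23 and 12.27 for Dnmt3b (0.05, interval -0.25 to 0.35). Of 26 Polycomb genes 0 were called, and 2 had an unadjusted p under 0.05, both higher in aged origin. Cbx8, a subunit of the Polycomb repressive complex that binds histone marks, read 5.95 and 5.76 against 5.34 and 5.46 (0.45, SE 0.13), and Phf1 read 5.87 and 5.61 against 5.53 and 5.22 (0.36, SE 0.15). The methyltransferase gene Ezh2 read 11.35 and 11.21 against 11.39 and 11.24 (-0.04, interval -0.33 to 0.26).

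Germ layer genes, whose presence would mark differentiating cells, were also uncalled. Neuroectoderm had the most members at an unadjusted p under 0.05, 4 of 11, all lower in aged origin, against 2.69% of all genes in that direction. They are Sox11, given above, Cdh2, the N-cadherin gene, which read 4.89 and 5.18 against 6.11 and 5.43 (-0.73, SE 0.22), the neuronal tubulin gene Tubb3, which read 7.28 and 7.37 against 7.59 and 8.01 (-0.47), and the neurofilament gene Nefl, which read 9.69 and 9.56 against 9.92 and 9.99 (-0.33). The ESC arrays read 5.34 and 5.61 for Cdh2 and 9.48 and 9.65 for Sox11, nearer the young origin than the aged. Other probe sets of Sox11 gave smaller differences, from -0.38 to -0.07. The list's median was nonetheless -0.07, because 3 of the 11 lay above 0 and others near it. Mesoderm genes had 2 of 11 at an unadjusted p under 0.05, Mixl1 (5.57 and 5.41 against 5.70 and 6.18) and Evx1 (5.25 and 5.36 against 5.56 and 5.87), and a median of 0.05. Endoderm genes split, with Spink1 lower and the adaptor gene Dab2 higher (6.30 and 5.74 against 5.26 and 5.55), 0 called and a median of 0.02 over 16.

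Fibroblast and feeder genes followed young-origin array 2 only in part, since it was the highest iPSC array in 18 of the 32 listed genes. Col1a2, a collagen chain gene, read 7.23 and 7.09 log2 in aged origin, 7.29 and 8.33 in young origin and 8.03 and 8.40 in ESC. Its difference of -0.65 (SE 0.28) was -0.13 without young-origin array 2. Vim, the vimentin gene, read 10.37 and 10.16 against 10.56 and 11.01, a difference of -0.52 that was -0.29 without that array. Col1a1 read 5.06 and 4.86 against 5.31 and 5.70, and -0.55 became -0.35, while its other probe set, of similar brightness, gave 0.09. Of the 28 genes tested, 0 were called, 3 were lower and 1 higher at an unadjusted p under 0.05, and the median was -0.10. The largest gaps between the young-origin arrays themselves, as array 1 minus array 2 in log2, were -1.99 for S1pr3, -1.99 for Cd44, -1.78 for Anxa1 and -1.66 for Prss23, all towards array 2. None of these genes is on the fibroblast and feeder list, but Postn, which had the next largest gap (-1.56), is on it. Col1a2 (-1.03), Thy1 (-1.02) and Acta2 (-0.98), also listed, had large gaps towards array 2 as well. Of the 32 listed genes, 24 were higher on array 2 than on array 1. Epithelial genes, which iPSC switch on as they leave a mesenchymal state, had 0 of 17 called or at an unadjusted p under 0.05, and Cdh1, the E-cadherin gene, read 11.70 and 11.29 against 11.56 and 11.53.

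Germline genes had 0 of 23 called, with 3 lower in aged origin at an unadjusted p under 0.05. Hormad1, a meiotic chromosome axis gene, read 4.24 and 5.13 in aged origin, 5.22 and 5.80 in young origin and 4.30 and 4.37 in ESC (-0.82, SE 0.27). Stag3, a meiotic cohesin gene, read 5.39 and 5.24 against 5.60 and 5.83 (-0.40, SE 0.14). The median of the list was -0.13 and groups did not overlap in 12 of its 23 genes, against 33.4% of all genes tested, a comparison given with no test. The share was larger still in heat shock genes (11 of 18) and neuroectoderm genes (6 of 11). It was small in MHC antigen presentation genes (1 of 13).

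Cell cycle, senescence and telomere genes, which bear on cellular ageing, gave no call. Of 30 cell cycle genes 2 had an unadjusted p under 0.05 and the median was -0.05, with the cyclin gene Ccnd2 at 8.21 and 8.24 against 8.57 and 8.69 (-0.41) and Ccne1 at 11.83 and 11.93 against 11.62 and 11.53 (0.31). The other Ccne1 probe set, also bright, gave -0.15. Of 23 CDK inhibitor and p53 target genes 0 were called, 1 had an unadjusted p under 0.05 and the median was -0.08. Cdkn2c, an inhibitor of CDK4 and CDK6, read 6.59 and 6.91 against 6.33 and 6.19 (0.49, SE 0.14), while Cdkn1a, the p21 gene, read 8.79 and 8.73 against 8.93 and 9.07 (-0.24, interval -0.52 to 0.04). Cdkn2a, the locus of the senescence inhibitor p16, was below the dim limit, at 4.29 to 4.73. Of 19 telomere genes 0 were called or had an unadjusted p under 0.05, and Tert, which encodes the telomerase catalytic subunit, read 7.03 and 7.31 against 6.83 and 7.34.

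Metabolic and stress genes differed little. All 34 oxidative phosphorylation genes tested had intervals within 1 log2 of 0, with differences from -0.27 to 0.07 and a median of -0.05. Glycolysis (20 genes), hypoxia (20 genes) and heat shock genes (18 genes) had medians of -0.06, -0.09 and -0.06, 0 called, and 1, 1 and 2 at an unadjusted p under 0.05. The integrated stress response list had the lowest median among lists of over 2 tested genes, -0.14 over 25 genes (-0.06 after quantile normalisation). Of the 25, 4 lay above 0, against 41.1% of all tested genes, with 0 called and 1 at an unadjusted p under 0.05. The share above 0 was alike in the hypoxia list (3 of 20) and the heat shock list (3 of 18), and larger in glycolysis genes (7 of 20). Among stress genes, Dnajb9, a chaperone gene induced through IRE1, read 8.16 and 7.98 against 8.43 and 8.60 (-0.44, SE 0.13), and Txnrd1, the thioredoxin reductase gene, read 10.62 and 10.30 against 9.87 and 9.91 (0.57, SE 0.15).

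Interferon genes had 0 of 18 called and 3 lower in aged origin at an unadjusted p under 0.05. Irf7, a transcription factor gene of the interferon response, read 5.22 and 4.97 against 5.55 and 5.61 (-0.48, SE 0.15), Stat2 read 5.54 and 5.70 against 6.16 and 6.17 (-0.54, SE 0.17), and Ifitm3 read 11.20 and 11.19 against 11.51 and 11.55 (-0.34). The list's median was -0.02, and 8 of 18 lay above 0, against 41.1% of all tested genes. MHC antigen presentation genes had the highest median of the lists, 0.08 over 13 genes, with 0 called or at an unadjusted p under 0.05. The remaining lists, which are trophoblast, immediate early, FGF, WNT, BMP and Nodal target, cholesterol synthesis and metal and oxidant defence genes, had medians of -0.06 to 0.02, 0 called and at most 2 each at an unadjusted p under 0.05.

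**Figure D3:**
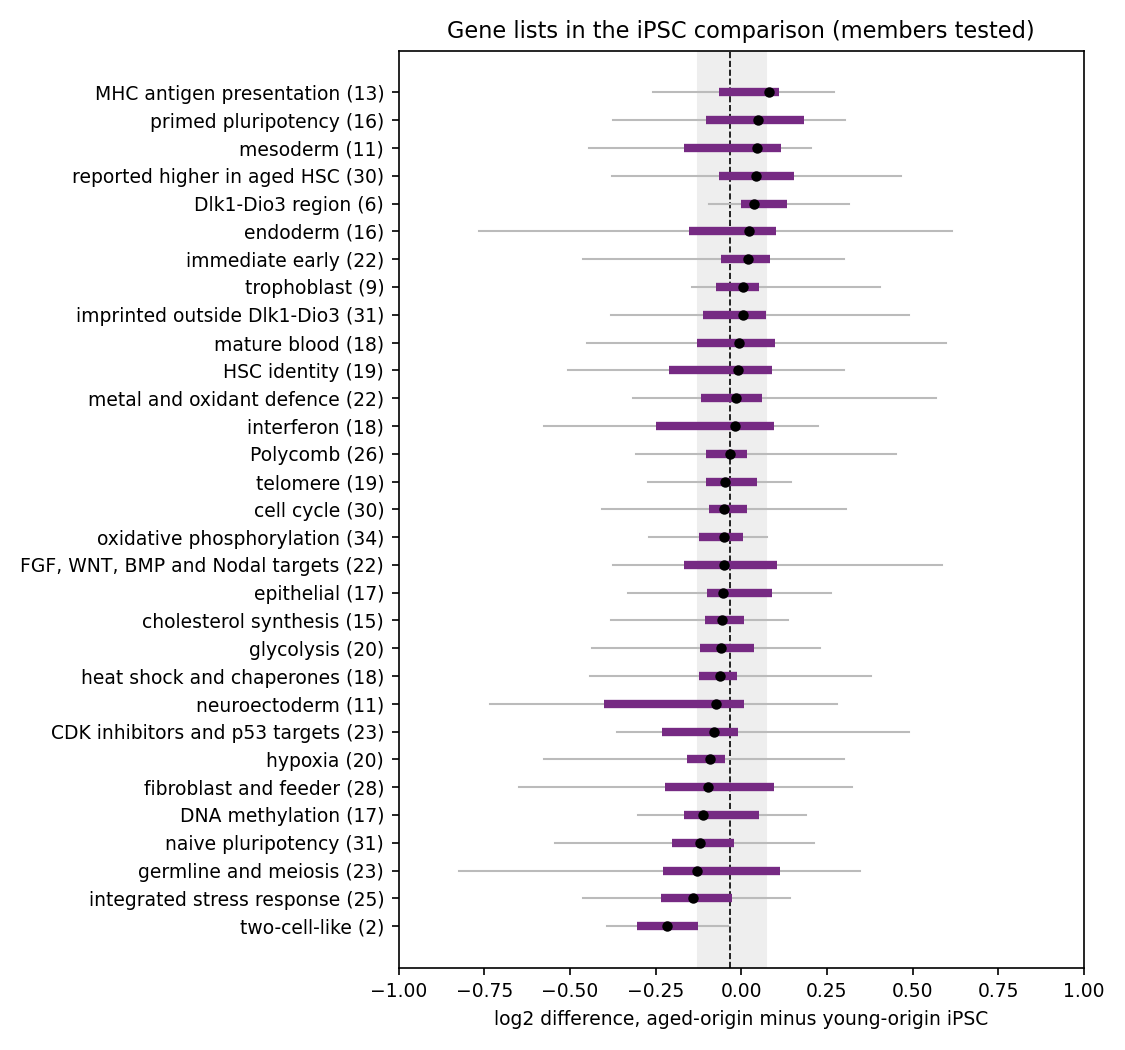
Log2 difference between aged-origin and young-origin iPSC (x axis) for the tested members of 31 gene lists, their number in brackets. Points are list medians, thick bars the middle quartiles and thin lines the range; the dashed line is the median of all tested genes at -0.03 and the shaded band their middle quartiles, and list medians run from -0.22 (2 genes) to 0.08.

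Genes of HSC ageing were followed from the blood cells into the iPSC. In steady-state HSC, whose arrays are independent of the iPSC arrays, 295 genes (2.23%) rose and 99 (0.749%) fell with age among 13220 tested by limma at an adjusted p under 0.05. The total of 394 was 258 without aged HSC array 3 and 233 without young HSC array 3. Of the 295, 223 were bright enough to test in iPSC, where 106 lay in the HSC direction, 0 were called, and the median was -0.02 beside 1.14 in HSC. Of the 99, 77 were tested, 47 lay in the HSC direction, 0 were called, and the median signed by the HSC direction was 0.04 beside 0.93. Over all tested genes in iPSC 41.1% lay above 0, a share that depends on the scaling between arrays. The HSC values chose these genes and are given as a description. The HSC estimate lay outside the 95% interval of the iPSC difference for 220 of the 223 and 71 of the 77. The other 72 and 22 genes were too dim in pluripotent cells to be tested.

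The list of 40 genes reported higher in aged HSC was compiled with such results known, so its direction in HSC is no independent evidence. In HSC 35 of the 40 rose and 1, Dnmt3b, fell. In iPSC 30 were tested, with a median of 0.04 beside 1.83 for the same 30 in HSC and -0.03 over all genes in iPSC. Of these, 0 were called, 19 lay above 0 (41.1% over all genes), and every one of the 30 intervals lay within 1 log2 of 0. For 23 of the 30 the iPSC interval lay wholly below the HSC interval. At an unadjusted p under 0.05, 0 were higher and 2 lower in aged origin.

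Those 2 are Nupr1 and Procr. Nupr1, a stress-induced chromatin protein gene, read 9.51, 9.58 and 9.83 log2 in aged HSC and 6.03, 6.45 and 6.19 in young HSC, but 8.19 and 8.12 in aged-origin and 8.50 and 8.46 in young-origin iPSC. The order of the groups was thus opposite in the iPSC, by -0.33 (SE 0.14). Procr, which encodes the endothelial protein C receptor that marks HSC, read 11.70, 11.55 and 11.63 in aged HSC, 11.00, 10.89 and 10.97 in young HSC, 5.80 and 5.76 in aged-origin iPSC and 6.15 and 6.16 in young-origin iPSC (-0.38, SE 0.12).

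Selp, Vwf and Clu, named in the background above, were higher on every aged than on every young HSC array, and their differences by origin in iPSC were not resolved. Selp, which encodes P-selectin of platelets and endothelium, read 11.48, 11.19 and 11.43 in aged HSC and 7.90, 8.23 and 7.94 in young HSC, and 5.06 and 5.28 against 5.29 and 4.70 in iPSC. Vwf, the von Willebrand factor gene, read 11.67, 11.97 and 12.05 against 9.54, 10.15 and 9.71 in HSC and 5.53 and 5.81 against 5.57 and 5.29 in iPSC. Clu, which encodes a secreted chaperone, read 10.44, 11.25 and 11.08 against 8.10, 7.96 and 8.03 in HSC and 8.67 and 8.50 against 8.70 and 8.77 in iPSC. The iPSC arrays overlapped in Selp (0.17, interval -0.29 to 0.63) and Vwf (0.24, interval -0.11 to 0.59). In Clu both aged-origin arrays lay just below both young-origin arrays, opposite to the HSC (-0.15, interval -0.48 to 0.17).

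**Figure D4:**
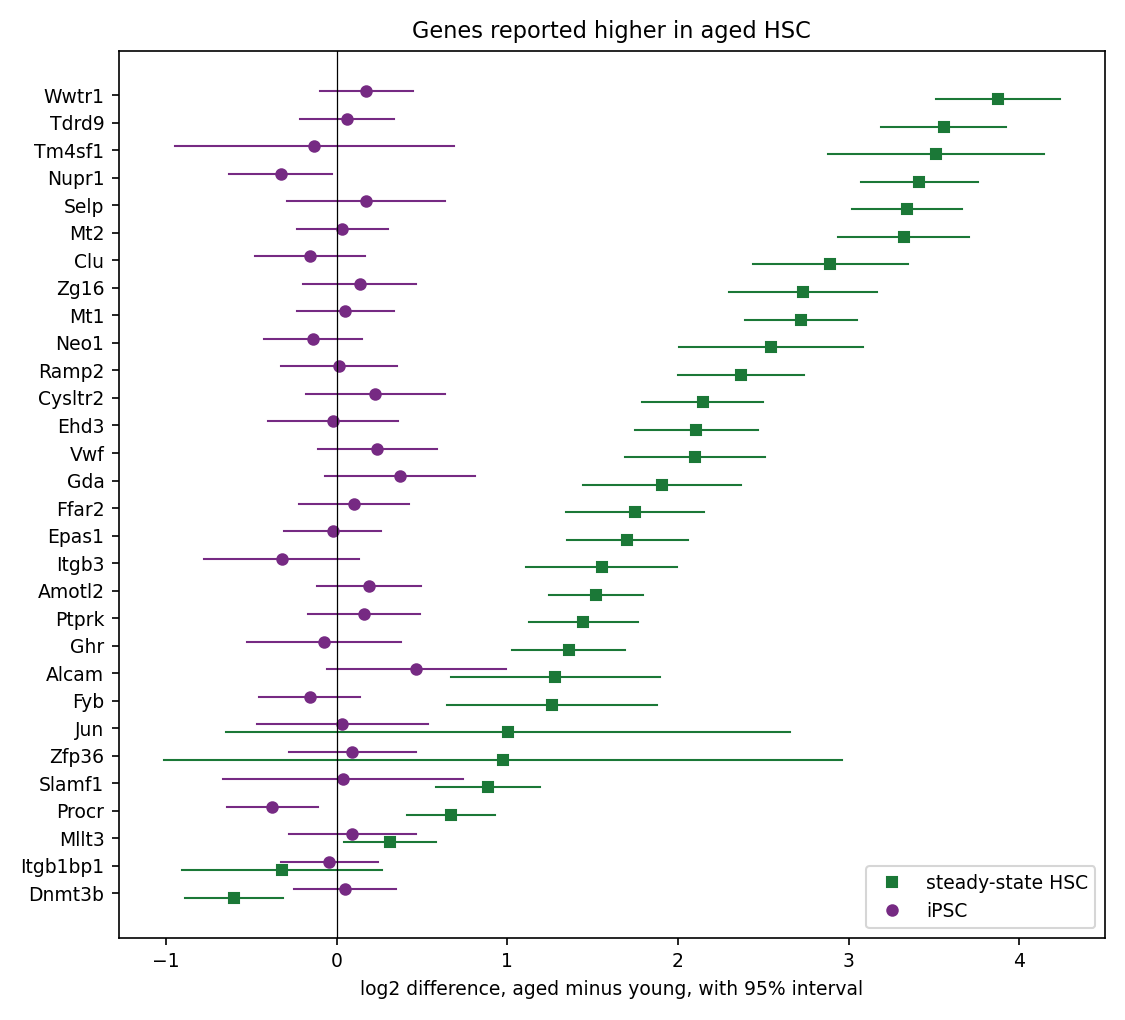
Log2 difference between aged and young (x axis) with its 95% interval for the 30 genes of the HSC ageing list that were tested in iPSC, in steady-state HSC (squares, 3 arrays per age) and in iPSC (circles, 2 arrays per origin). The iPSC values have a median of 0.04 and the HSC values a median of 1.83, and the 2 intervals do not overlap for 24 genes, 23 with the iPSC interval below and 1, Dnmt3b, with it above.

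The difference between the age effects was tested itself in a fit of the 6 steady-state HSC and 4 iPSC arrays. In 143 genes (1.08%) the effect in iPSC was lower than in HSC and in 33 (0.25%) it was higher, among 13217 tested by limma at an adjusted p under 0.05. The total of 176 depended on the number of iPSC arrays, being 109 without aged-origin array 1, 88 without aged-origin array 2, 96 without young-origin array 1 and 93 without young-origin array 2. All 40 genes of the HSC ageing list entered this fit, and 32 were called with a lower effect in iPSC and 0 with a higher one. The list was compiled as genes higher in aged HSC, so a lower effect in iPSC was favoured in advance and the count is a description. In addition, 10 of the 40 were too dim to test in the iPSC and ESC arrays. They entered here because the filter took the mean over HSC and iPSC arrays. The 143 and the 33 also hold genes this dim in iPSC, and their number was not counted. For such genes the difference largely repeats the HSC effect with its sign turned.

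Nupr1 (-3.74, SE 0.21), Wwtr1 (-3.70, SE 0.23) and Tdrd9 (-3.49, SE 0.23) were the 3 of the 5 genes with the smallest p in the lower direction that were also bright enough to test in iPSC. Wwtr1, the gene of TAZ, a coactivator held back by Hippo signalling, read 9.99, 10.02 and 9.99 in aged HSC, 5.86, 6.46 and 6.05 in young HSC, 7.44 and 7.42 in aged-origin iPSC and 7.31 and 7.20 in young-origin iPSC. All 4 iPSC arrays lay between the HSC ages. Tdrd9, a germline helicase gene, read 9.12, 8.86 and 8.89 in aged HSC and 5.20, 5.29 and 5.72 in young HSC, and 5.14 and 5.18 against 5.08 and 5.11 in iPSC, which is the level of young HSC. Plscr2, a phospholipid scramblase gene, and Gpr183, an oxysterol receptor gene, had differences of -4.11 and -3.62, but all iPSC arrays were dim for them, at 2.88 to 2.98 and 4.46 to 4.97.

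The promoters of Nupr1, Wwtr1 and Tdrd9 are shown because, of the 5 genes with the smallest p for a lower age effect in iPSC than in HSC, these 3 were bright enough to measure in iPSC. Each is the stretch from 250 bases before to 50 after the RefSeq start in build GRCm38.p6, 300 bases long, at chr7:126625421-126625720 on the minus strand, chr3:57575861-57576160 on the minus strand and chr12:111971309-111971608 on the plus strand. Capitals mark CG dinucleotides, the sites of DNA methylation, which reads the same on both strands.
Nupr1: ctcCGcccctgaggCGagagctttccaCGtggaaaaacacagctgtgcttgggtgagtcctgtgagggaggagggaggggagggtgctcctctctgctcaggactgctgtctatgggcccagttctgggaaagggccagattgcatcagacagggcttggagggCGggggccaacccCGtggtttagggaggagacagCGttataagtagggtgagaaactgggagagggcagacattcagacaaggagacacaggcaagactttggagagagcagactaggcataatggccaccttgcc
Wwtr1: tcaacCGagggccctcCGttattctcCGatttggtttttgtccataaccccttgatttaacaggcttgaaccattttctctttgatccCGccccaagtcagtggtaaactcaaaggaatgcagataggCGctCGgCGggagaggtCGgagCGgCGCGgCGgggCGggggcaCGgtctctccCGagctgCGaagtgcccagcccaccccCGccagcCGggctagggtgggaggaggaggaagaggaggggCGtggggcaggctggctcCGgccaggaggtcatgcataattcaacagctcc
Tdrd9: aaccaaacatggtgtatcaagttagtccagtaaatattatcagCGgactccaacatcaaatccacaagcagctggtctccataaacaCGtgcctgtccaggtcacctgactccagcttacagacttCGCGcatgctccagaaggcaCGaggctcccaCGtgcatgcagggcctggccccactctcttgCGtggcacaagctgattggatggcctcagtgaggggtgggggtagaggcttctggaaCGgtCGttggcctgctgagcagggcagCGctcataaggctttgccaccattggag
The Nupr1 window holds 6 CG, as many or more of which are found in 56.4% of the 32851 promoter windows of the same length. The Wwtr1 window holds 20 (26.5%) and the Tdrd9 window 10 (43.5%), where the median of all windows is 7. Methylation was not measured in this series, so these letters are a description.

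Of the 77 genes lower in aged HSC and tested in iPSC, 6 were lower and 3 higher in aged origin at an unadjusted p under 0.05. Of the 223 genes higher in aged HSC and tested in iPSC, 5 were higher and 14 lower in aged origin by the same limit, opposite to the HSC for most. Over all tested genes 2.2% were higher and 2.69% lower. Mmp2, a matrix metalloproteinase gene, read 6.23, 6.26 and 6.52 in aged HSC and 8.14, 8.15 and 8.04 in young HSC, and 7.26 and 7.15 against 7.10 and 7.05 in iPSC, a difference of the age effects of 1.90 (SE 0.18). Rgs7bp, a partner gene of G-protein regulators, had one of 2.59, and Camk1d, a calcium-dependent kinase gene, one of 2.15. Cd86, a costimulatory receptor gene of immune cells, had one of 1.58 and the nuclear receptor gene Hnf4a one of 1.66. In iPSC, Camk1d read 6.42 and 6.39 against 6.17 and 6.18 and Cd86 5.10 and 5.15 against 4.91 and 4.91, higher in aged origin where HSC were lower, with intervals of -0.05 to 0.52 and -0.07 to 0.50. For Camk1d this rests on 1 of 3 probe sets, and the others gave -0.40 and -0.43, lower in aged origin as in HSC. Vim, given above with the feeder genes, was lower by like amounts in both settings, -0.52 in iPSC and -0.55 in HSC (adjusted p = 0.0325 in limma for HSC). Plac8, a gene of myeloid and lymphoid progenitors, was lower in both settings: 9.38 and 9.27 against 9.67 and 9.82 in iPSC (-0.42, SE 0.16, unadjusted p = 0.0245 by limma's moderated test) and -2.02 in HSC. Satb1, a chromatin organiser gene of lymphoid cells that fell by 1.92 in HSC, varied within both iPSC pairs, at 6.36 and 5.37 in aged origin and 6.49 and 5.47 in young origin.

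Chromosomes gave like medians. The median difference of the 19 autosomes ran from -0.05 on chromosome 14 to -0.02 on chromosome 7, around the all-gene value of -0.03. After quantile normalisation all 19 medians moved by more than the replicate spread, so their level depends on the scaling between arrays. The share of genes at an unadjusted p under 0.05 ran from 3.49% to 6.92%, around 4.89%. Over 12702 windows of 25 neighbouring tested genes the median ran from -0.18, on chromosome 6, to 0.10, on chromosome 8.

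**Figure D5:**
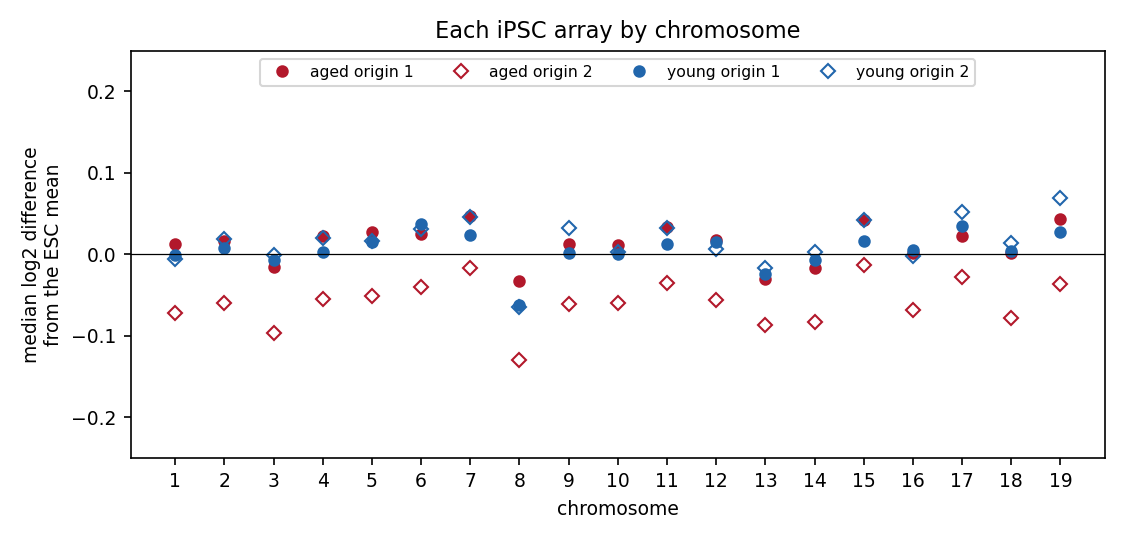
Median log2 difference from the mean of the ESC arrays (y axis) for each of the 19 autosomes (x axis), 1 symbol per iPSC array, filled for array 1 and open for array 2. Aged-origin array 2 lies lowest on every autosome, at -0.13 to -0.01, and the other arrays lie within -0.06 to 0.07.

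Each origin was also set against ESC, in contrasts that share the ESC arrays and are therefore given side by side only. Against ESC, 2 genes (0.0151%) were higher and 7 (0.0529%) lower in aged-origin iPSC, and 4 (0.0302%) higher and 6 (0.0454%) lower in young-origin iPSC. Without aged-origin array 1 the 9 calls of the aged origin became 2, without aged-origin array 2 they became 3 and without ESC array 2 they became 5, while the 10 calls of the young origin became 6 without young-origin array 1. Meg3 was lower by log2 values of -3.31 in aged and -3.63 in young origin. Mcts2, an imprinted gene, was at -3.41 and -3.47, Zdbf2, an imprinted gene on chromosome 1, at -1.94 and -2.06, and Cyb5r1, a reductase gene, at -2.04 and -1.93. Rec114, a meiotic recombination gene, was higher by 1.18 and 1.49, and Il1r2, the decoy interleukin receptor gene, by 1.08 and 1.21. Gypc was called against ESC in young origin (1.01, SE 0.13, adjusted p = 0.0328 in limma), whereas the aged origin stood at ESC level and the difference between the origins was not called.

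Genes on X and Y were left out of all counts by the rule of the comparison, and 1 of the 415 in the fit was called. The Y-linked translation factor gene Eif2s3y read 9.23 and 8.91 log2 in aged-origin iPSC and 3.62 and 3.90 in young-origin iPSC, a difference of 5.32 (SE 0.36, adjusted p = 0.00121 in limma). The ESC arrays read 8.44 and 9.84 and the HSC arrays, labelled male, 10.21 to 10.79. Xist, the noncoding RNA that silences one X chromosome in female cells, read 7.66 and 8.14 in aged origin and 8.24 and 7.75 in young origin, and thus did not separate the origins. The labels give no sex for the iPSC. Age of origin and Y-linked signal cannot be told apart in these 4 arrays.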

How the data were processed

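The series holds 16 one-colour Affymetrix arrays in 7 groups. The authors deposited linear intensity values, from 4.53 to 31493 over 45101 probe sets; their summarisation and normalisation are not given in the sources used here. Log2 was taken of each intensity with no pseudocount, and no further scaling was applied. The 64 control probe sets were left out. Of the others, 34945 had 1 gene symbol in the platform annotation, 932 several and 9160 none. Where a gene had several probe sets, the brightest on average in all 16 arrays stood for it. RefSeq (GRCm38.p6) gave the chromosomes of 18032 of 18193 genes, and the other 161 stayed in the counts of autosomal genes.

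Fits used limma 3.58.1 in R 4.3.3 (lmFit, eBayes) without genes under the 25th percentile of mean log2. They held the 4 iPSC and 2 ESC arrays (3 residual degrees of freedom), the 6 steady-state HSC arrays (4), or the 6 HSC and 4 iPSC arrays (6). X and Y genes stayed in each fit and its Benjamini-Hochberg adjustment (13645 genes). The table holds no detection calls, so a low level cannot be told from background, and the number of arrays limits the precision. The fits were tested on simulated data.

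Named genes are up to 12 per direction of the iPSC comparison (called, or else with the smallest p and no overlap), 5 per direction of the difference of age effects and of the HSC calls, 2 per list of 31 lists, and a set of identity genes. Others are named to complete a count and were chosen after their values were seen. The members and lists were chosen with earlier results of these data known. Replicate numbers did not pair the arrays, since the differences between replicates 1 and 2 correlated at -0.06 across genes between the origins.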

Additional observations from a re-analysis of the deposited data

Results flagged for a closer look

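Genes whose age effect differed between iPSC and steady-state HSC were singled out because the difference itself passed the test in limma, in the fit of 10 arrays. The values are the iPSC effect minus the HSC effect in log2. Among genes that rose with age in HSC, the difference was -5.20 for Sbspon, -4.30 for Osmr, the oncostatin M receptor gene, -4.11 for Plscr2, -3.74 for Nupr1 and -3.70 for Wwtr1. It was -3.62 for Gpr183, -3.49 for Tdrd9, -3.17 for Selp, -3.05 for Clu and -1.86 for Vwf. Sbspon, Osmr, Plscr2 and Gpr183 were too dim to test in the iPSC and ESC arrays. Among genes that fell with age in HSC, it was 2.59 for Rgs7bp, 2.15 for Camk1d, 1.90 for Mmp2, 1.90 for Tent5a, a poly(A) polymerase gene, 1.66 for Hnf4a, 1.60 for Plac8 and 1.58 for Cd86. Tent5a was also too dim to test in iPSC. For these dim genes the difference largely repeats the HSC effect with its sign turned.

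Eif2s3y was singled out as a signal in the genes set aside, with a difference of 5.32 log2 between aged-origin and young-origin iPSC.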

How the results depend on the processing

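The count of 0 called genes between aged-origin and young-origin iPSC was 0 under all alternatives but one: quantile normalisation, array centring, no dim filter or one at the 50th percentile, the mean of probe sets, a prior that follows intensity, all 16 arrays or the 4 iPSC arrays alone, a required change of 1 log2, a pseudocount of 16, X and Y genes removed, array weights, and each array left out (0 to 0). With the replicate block, although the numbers do not pair the arrays, 1 gene was called, Smco4 (adjusted p = 0.0111 in limma). Genes at an unadjusted p under 0.05 numbered 136 to 868. Over 107 named genes, 1939 of 1967 values kept their sign, 28 changed it without a call on either side, and 0 reversed. Of 62 list medians under both rescalings, 13 moved beyond the replicate spread. The medians of all 19 autosomes did so under quantile normalisation. The 9 aged-origin calls against ESC became 2 with quantile normalisation, 14 with the mean of probe sets, 24 with the intensity prior and 4 with all 16 arrays, and 2 to 9 with an array left out. The 10 young-origin calls became 35 with the intensity prior and 17 with the pseudocount, and 6 to 8 with an array left out. The 394 HSC calls became 216 with the required change and 233 to 367 with an array left out. The 176 genes with differing age effects became 61 with all 16 arrays, 166 with the replicate block and 88 to 198 with an array left out; fewer arrays give fewer residual degrees of freedom. For the other moves the cause was not tested. With 2 arrays per origin and a median standard error of 0.14 log2, the unadjusted 95% interval typically reached 0.32 log2 to either side. Smaller differences were therefore not resolvable gene by gene. After adjustment over all genes of the fit larger ones were not called either, such as Gypc at -0.89 (adjusted p = 0.507 in limma).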

Other observations

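The largest gaps between the 2 arrays of 1 origin were, by size, 1.85 log2 for Ptn in aged origin and 1.99 for S1pr3 in young origin. They are gaps between single arrays and are not set against differences between means of 2 arrays. Single arrays also lay far apart across origins, with Ptn at 4.08 on aged-origin array 2 and 6.58 on young-origin array 2. Satb1 read 6.36 and 5.37 log2 on the aged-origin arrays and 6.49 and 5.47 on the young-origin arrays, about as far apart within each origin. Prss23, a serine protease gene, read 5.49 and 3.96 in aged origin and 3.85 and 5.51 in young origin. H3f3b, a histone variant gene, read 5.66 and 7.05 within aged origin, and the homeobox gene Otx2 read 5.27 and 6.47 within young origin.

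Chromosome 8 had the lowest median difference from the ESC mean of the 19 autosomes on each of the 4 iPSC arrays, at -0.03 and -0.13 in aged origin and -0.06 and -0.06 in young origin. The 4 values share the ESC arrays, and the difference was not tested.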
